A study of Mus musculus with 12 samples.

Results

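The transcription factors that T cells induce when their antigen receptor (TCR) is engaged were followed through the 4 subsets of CD4 single positive (SP) thymocytes. They were the NR4A receptors Nr4a1, Nr4a2 and Nr4a3, the EGR zinc finger factors Egr1, Egr2 and Egr3, the EGR corepressor Nab2 and, as the marker used in the sort, Cd69. Members were all probe sets that the annotation of the Affymetrix Mouse Genome 430 2.0 array assigns to 1 of these 8 symbols alone, which gave 17 of the 45037 probe sets and 8 of the 18193 genes that at least 1 probe set names alone. Thymi of C57BL/6 mice aged 6 to 8 weeks were pooled, CD8+ cells were killed with an antibody and complement, dead cells were removed by centrifugation, and CD4+CD8-CD25-NK1.1- cells were then stained and sorted, so every subset lacks cells with surface CD25 or NK1.1. SP1 cells were Qa-2-, 6C10+ and CD69+; SP2 cells were Qa-2-, 6C10- and CD69+; SP3 cells were Qa-2-, 6C10- and CD69-; SP4 cells were Qa-2+, 6C10- and CD69-. Each subset was measured on 3 arrays, numbered by biological replicate, and each array held RNA of several mice. The SP4 gate did not exclude Qa-2+ T cells that had returned from the periphery. Values are linear intensities, which the authors had normalized between arrays. The study ordered the subsets as successive stages, and the question here was whether the level of each factor differed between stages and between the CD69+ and CD69- sorts.

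TCR ligation activates the Ras-ERK cascade and raises cytosolic calcium. ERK acts through serum response factor and its partners on the EGR genes, and calcium acts through calcineurin and the MEF2 factors on the NR4A genes. In the thymus these factors are induced by selecting peptides. Nr4a1, also called Nur77, is widely used as a reporter of TCR signal strength and takes part in the deletion of self-reactive thymocytes, and Egr1 and Egr3 act in positive selection. CD69, a C-type lectin that appears on the surface after TCR ligation, holds cells in the thymus by removing the egress receptor S1pr1 from the surface.

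Upstream sequence is shown for the NR4A genes, because their levels moved together in the results that follow, and for Egr2 as the EGR member with a window. RefSeq windows (GRCm38.p6) of 300 bases, 250 before to 50 after a start, matched 5 of the 8 members (Nr4a1, Nr4a2, Nr4a3, Egr2 and Nab2). Windows of Egr1, Egr3 and Cd69 were not used here. The 250 bases before the start are printed 5′ to 3′ on the strand of the gene, with matches in capitals. Capitals mark the core of the cAMP response element (CRE core, TGACG, or CGTCA when read from the other strand), the EGR site in Nr4a1 and the CArG box in Egr2, the motif of serum response factor.
Nr4a1, chr15:101266596-101266845, plus strand: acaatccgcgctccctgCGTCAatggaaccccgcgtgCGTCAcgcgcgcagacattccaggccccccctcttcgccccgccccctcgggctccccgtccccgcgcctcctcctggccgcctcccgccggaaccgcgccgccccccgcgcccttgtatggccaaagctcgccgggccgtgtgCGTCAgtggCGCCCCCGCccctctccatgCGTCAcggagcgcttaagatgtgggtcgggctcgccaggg
Nr4a2, chr2:57124004-57124253, minus strand: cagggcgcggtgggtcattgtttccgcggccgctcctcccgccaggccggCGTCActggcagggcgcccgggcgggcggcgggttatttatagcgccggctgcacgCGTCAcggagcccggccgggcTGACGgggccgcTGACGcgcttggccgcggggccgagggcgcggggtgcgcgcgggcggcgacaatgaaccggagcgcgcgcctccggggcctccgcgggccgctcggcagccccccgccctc
Nr4a3, chr4:48045055-48045304, plus strand: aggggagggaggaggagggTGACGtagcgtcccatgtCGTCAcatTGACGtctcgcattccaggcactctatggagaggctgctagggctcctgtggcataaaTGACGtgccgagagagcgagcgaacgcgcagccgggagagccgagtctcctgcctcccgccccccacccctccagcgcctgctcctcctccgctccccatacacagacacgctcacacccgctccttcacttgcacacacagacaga
Egr2, chr10:67537619-67537868, plus strand, 1 of its 5 windows: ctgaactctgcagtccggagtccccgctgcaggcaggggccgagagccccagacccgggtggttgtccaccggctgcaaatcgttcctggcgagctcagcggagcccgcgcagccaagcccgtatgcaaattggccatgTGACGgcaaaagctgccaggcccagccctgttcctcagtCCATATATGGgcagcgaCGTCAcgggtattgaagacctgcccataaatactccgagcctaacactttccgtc
Each NR4A window held 4 CRE cores over both strands, none of which overlapped another, and 76 of the 32851 windows of all genes (0.231%) held at least 4. The CRE core and the limit of 4 were both chosen after the sequences were seen, so that share is a description and no test. At least 1 core occurred in 20.8% of all windows. The full CRE (TGACGTCA), in 1.79% of all windows, was in no member window. The EGR site (GCGGGGGCG or GCGTGGGCG), in 3.47% of all windows, matched once in Nr4a1. The CArG box, in 1.63% of all windows, matched in 4 of the 5 Egr2 windows, 3 of which overlap and share 1 match. The AP-1 site (TGANTCA, in 7.81% of windows) and the NR4A monomer site (AAAGGTCA, in 1.51%) matched in none of the members' windows, and the Nab2 window held none of the motifs searched. These are matches of letters, and binding was not measured.

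The arrays of replicate 3 stood apart from the others, among the 8 genes most of all in Nr4a2 and Nr4a3. Results are therefore given with the replicate number in the model and without these arrays where that matters. Markers of double positive thymocytes, which the sort was meant to leave out, were high on some arrays of SP1 and SP3 in replicates 1 and 2, as given with the other cell types further on. The plainest pattern was a lower NR4A level in the later subsets, seen within each of the 3 replicate numbers. Nr4a1, Nr4a2, Nr4a3 and Nab2 were lower in the CD69- subsets than in the CD69+ subsets, and these 4 passed the test when the replicate number was in the model. Egr3 was highest in SP4, while Egr1, Egr2 and Cd69 itself passed in no comparison. Subsets were compared with limma on log2(intensity + 16), with p-values adjusted over all 45037 probe sets (Benjamini-Hochberg), and a gene was called at an adjusted p under 0.05. In the model with the subsets alone, 0 of the 8 genes were called in each of 7 comparisons (at an unadjusted p under 0.05, 1 to 3 of the 8 were in every comparison but SP2 vs SP1). With the replicate number as a block, 4 of the 8 genes were called in CD69- vs CD69+ (the mean of SP3 and SP4 minus the mean of SP1 and SP2), 3 in SP4 vs SP1, 2 in SP4 vs SP2, 1 in SP3 vs SP1 and 0 in the 3 steps between neighbouring subsets. Replicates 1 and 2 deviated less from each other than from replicate 3, so a block of replicate 3 against the other arrays was tried as well, after the data were seen. It gave the same 4, 3 and 1 genes in CD69- vs CD69+, SP4 vs SP1 and SP3 vs SP1, and Nr4a1 but not Nab2 in SP4 vs SP2. Verbs of change for the 8 genes rest on the blocked model, and each such result is given with its adjusted p in both. In bulk RNA, fewer cells of a type and less RNA per cell cannot be told apart.

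Those counts stand against few calls over the whole array. Without the block the share of probe sets called was 0.588% in CD69- vs CD69+, 1.08% in SP4 vs SP1, 0.557% in SP4 vs SP2 and 0.0111% in SP3 vs SP1. For the first step, SP2 vs SP1, it was 0% (1237 probe sets at an unadjusted p under 0.05 by limma without the block). For SP3 vs SP2 it was also 0% (1359 at an unadjusted p under 0.05), and for SP4 vs SP3 it was 0.16%. With the block the shares were 3.69% in CD69- vs CD69+, 5.16% in SP4 vs SP1, 2.65% in SP4 vs SP2 and 0.329% in SP3 vs SP1. The 3 steps gave 0.00888% (SP2 vs SP1), 0.22% (SP3 vs SP2) and 1.16% (SP4 vs SP3). The members' counts with the block, 4 of 8 and 3 of 8, lay above these shares. The members were chosen with earlier results of these data known, and each was read by its probe set of highest mean. The shares cover all probe sets, so counts and shares are set side by side as a description only.

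**Figure D1:**
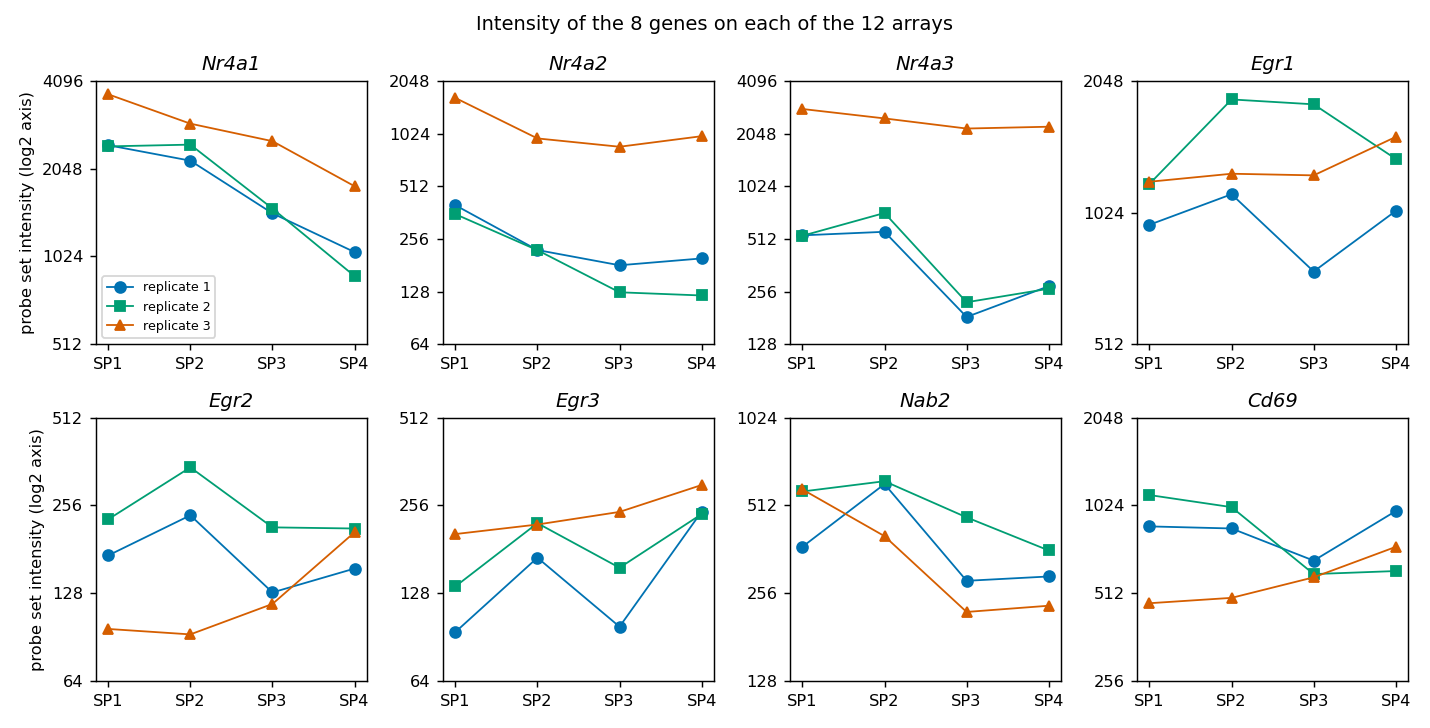
Linear intensity of each of the 8 genes (vertical axis, log2 scale, a range of its own in each panel) in SP1 to SP4 (horizontal axis), 1 point for each of the 12 arrays, joined by replicate number. Nr4a1 lies lower in SP3 than in SP2 and lower in SP4 than in SP3 in each replicate, whereas Nr4a2 and Nr4a3 lie far higher in replicate 3 than in replicates 1 and 2 and the Cd69 lines run in different directions.

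The mean of Nr4a1 descended along the whole order of the subsets. Its intensity was 2466, 2444 and 3688 in SP1 (replicates 1, 2 and 3), 2183, 2478 and 2925 in SP2, then 1440, 1496 and 2547 in SP3, and 1060, 877 and 1784 in SP4. The means were 2866 ± 712 (SD, n = 3) in SP1, 2529 ± 373 in SP2, then 1828 ± 623 in SP3 and 1240 ± 480 in SP4. SP1 and SP4 did not overlap, and replicate 3 was the highest array of every subset. Within replicates 1, 2 and 3 the log2 difference of SP4 from SP1 was -1.21, -1.46 and -1.04, with a mean of -1.24 ± 0.14 (SE of the blocked model). Nr4a1 fell in SP4 vs SP1 with the block (adjusted p = 0.000221 by limma), against an adjusted p of 0.0868 without it. It also fell in SP4 vs SP2, with a log2 fold change of -1.07 (0.00117 and 0.24), and in CD69- vs CD69+, with -0.87 (0.000315 and 0.123). Neither the step from SP2 to SP3 (log2 fold change -0.51, adjusted p = 0.229 with the block) nor that from SP3 to SP4 (-0.57, 0.0843) passed on its own. Its 3 calls with the block held when any 1 of the 12 arrays was left out, with adjusted p-values up to 0.00833. Without all 4 arrays of any 1 replicate number they held too in SP4 vs SP1 (up to 0.0109) and CD69- vs CD69+ (up to 0.0158).

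Nr4a2, or Nurr1, was highest in SP1. The probe set of highest mean gave 399, 355 and 1640 in SP1, 221, 221 and 962 in SP2, then 181, 127 and 862 in SP3, and 198, 122 and 991 in SP4. The replicate 3 array was at least 4.35 times the mean of the other arrays in every subset, and the subsets overlapped throughout when all arrays were pooled. Within replicate numbers SP1 was highest in 3 of 3, while the order of the other subsets differed. In replicate 3 SP4 (991) lay above SP2 (962). The log2 difference of SP4 from SP1 was -0.96, -1.43 and -0.72 in replicates 1, 2 and 3. Nr4a2 fell in SP4 vs SP1 (log2 fold change -1.03 ± 0.15, SE, with an adjusted p of 0.00148 under the block and 0.976 without it). It fell as well in SP3 vs SP1 (-1.12, 0.00834 and 1) and in CD69- vs CD69+ (-0.71, 0.00269 and 1). The largest step, SP2 vs SP1, lay within the CD69+ pair (-0.74, adjusted p = 0.171 with the block). Against SP2, SP3 differed by -0.38 (0.484) and SP4 by -0.30 (0.431), so the CD69- vs CD69+ difference rested mostly on SP1. The call in SP3 vs SP1 was lost in the blocked model without SP1 replicate 1, SP1 replicate 2, SP3 replicate 2 or SP3 replicate 3, where the adjusted p reached 0.0784. The other 2 were kept without any single array, and without all 4 arrays of any 1 replicate number (up to 0.0334 in SP4 vs SP1 and 0.043 in CD69- vs CD69+).

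The 6 probe sets of Nr4a2 were of 2 kinds. The 3 next in mean intensity, at 54 to 1437 on single arrays, gave log2 fold changes of -1.28, -1.23 and -0.80 in SP4 vs SP1, and all 3 were called with the block (adjusted p = 0.00144, 0.000154 and 0.00544). The same 3 gave, in CD69- vs CD69+, -0.86, -0.75 and -0.51 (0.00296, 0.000625 and 0.0154). The remaining 2 read 13.2 to 44.6 on all arrays, near the array medians of 30.5 to 32.8, and passed in neither comparison.

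Nr4a3, or Nor1, was higher in both CD69+ subsets in replicates 1 and 2 and high throughout in replicate 3. Its intensity was 537, 534 and 2835 in SP1, 563, 721 and 2503 in SP2, then 183, 222 and 2191 in SP3, and 275, 266 and 2244 in SP4. In replicates 1 and 2 both CD69+ subsets lay above both CD69- subsets without overlap. In replicate 3 they did so as well, but by a small margin. The log2 difference of the CD69- mean from the CD69+ mean was -1.23 and -1.30 in replicates 1 and 2 and -0.26 in replicate 3. Nr4a3 fell in CD69- vs CD69+ (log2 fold change -0.93 ± 0.17, SE, with an adjusted p of 0.00707 under the block and 1 without it). This call held without any single array (adjusted p up to 0.0333), but not without all 4 arrays of replicate 1 (0.127) or of replicate 2 (0.0678). The SP3 vs SP2 difference of -1.12 did not pass with the block (0.0826). It was -1.58 on the 8 arrays of replicates 1 and 2 (adjusted p = 0.00984 without a block). Of the other probe sets of Nr4a3, one read 8.12 to 29.4 and was called with the block in CD69- vs CD69+ (log2 fold change -0.26, 0.00697). The other read 32.9 to 43.9 and gave 0.00 (0.989).

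Egr1, an immediate early gene of TCR ligation, passed no test between subsets. Its intensity was 961, 1191 and 1205 in SP1, 1128, 1859 and 1257 in SP2, then 751, 1812 and 1246 in SP3, and 1033, 1359 and 1526 in SP4. All 4 subsets overlapped, and replicate 1 was the lowest array in each. The log2 fold change in CD69- vs CD69+ was 0.00, with a 95% confidence interval of -0.27 to 0.27 with the block and -0.46 to 0.46 without. SP4 lay above SP1 by 0.21 (interval -0.17 to 0.59 with the block).

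Egr2, a factor of thymic selection and of T cell anergy, varied between arrays of a subset. The intensities were 172, 229 and 96.5 in SP1, 237, 346 and 92.4 in SP2, then 129, 215 and 118 in SP3, and 156, 213 and 207 in SP4. SP2 was the highest subset in replicates 1 and 2 and the lowest in replicate 3. The log2 fold change was -0.07 in CD69- vs CD69+ (interval -0.45 to 0.32 with the block) and 0.25 in SP4 vs SP1 (-0.30 to 0.80). The sign of both differences depended on single arrays. Its second probe set, at 62.3 to 212, gave -0.11 and 0.26 in these comparisons and was called in neither.

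Egr3 was the member with its highest mean in SP4. It read 94.1, 135 and 204 in SP1, 169, 223 and 220 in SP2, then 98.2, 157 and 243 in SP3, and 244, 239 and 301 in SP4. All SP4 arrays lay above all SP1 arrays, and SP4 was the top subset within 3 of 3 replicate numbers. Egr3 rose in SP4 vs SP1 (log2 fold change 0.84 ± 0.17, SE, with an adjusted p of 0.0111 under the block and 0.406 without it). The call was lost in the blocked model without SP1 replicate 1, SP1 replicate 2 or SP4 replicate 1 (adjusted p up to 0.0834), and without all of replicate 1 (0.151). The CD69- vs CD69+ difference was 0.25 (adjusted p = 0.379 with the block), and the mean of SP2 lay above that of SP3. A second probe set of Egr3 read 61.4 to 94.1 and did not share the difference (-0.05 in SP4 vs SP1, 0.894).

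Nab2, which binds EGR proteins and represses their targets, was higher in both CD69+ subsets. Its intensity was 369, 572 and 581 in SP1, 606, 620 and 402 in SP2, then 282, 466 and 221 in SP3, and 292, 359 and 232 in SP4. Each CD69- array lay below both CD69+ arrays of its own replicate number, although the pooled subsets overlapped. Nab2 fell in CD69- vs CD69+ (log2 fold change -0.75 ± 0.14, SE, with an adjusted p of 0.0103 under the block and 0.226 without it). The call held without any single array (up to 0.0475) and was lost without all of replicate 3 (0.103). In SP4 vs SP2 it fell by 0.84 with an adjusted p of 0.0461 with the block (0.507 without), and this call was lost in 9 of the 12 single-array omissions and with a block of replicate 3 against the rest (0.0907). In SP4 vs SP1 the difference of -0.75 did not pass (0.0531 with the block).

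Cd69 mRNA did not part the subsets as the sort on CD69 protein did. Its intensity was 868, 1112 and 473 in SP1, 854, 1010 and 493 in SP2, then 662, 595 and 580 in SP3, and 980, 610 and 738 in SP4. In replicate 2 both CD69+ subsets were above both CD69- subsets, in replicate 3 both were below, and in replicate 1 SP4 was the highest of all. The log2 fold change in CD69- vs CD69+ was -0.16 (95% confidence interval -0.52 to 0.21 with the block, adjusted p = 0.766). Without replicate 3 it was -0.45 (0.435).

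By mean log2 level the order was SP1, SP2, SP3, SP4 for Nr4a1, SP1, SP2, SP4, SP3 for Nr4a2 and SP2, SP1, SP4, SP3 for Nr4a3. It was SP2, SP1, SP3, SP4 for Nab2, SP4, SP2, SP3, SP1 for Egr3, SP2, SP4, SP3, SP1 for Egr1, SP2, SP4, SP1, SP3 for Egr2 and SP1, SP4, SP2, SP3 for Cd69. No pair of neighbours in any of these orders passed the test, with or without the block.

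**Figure D2:**
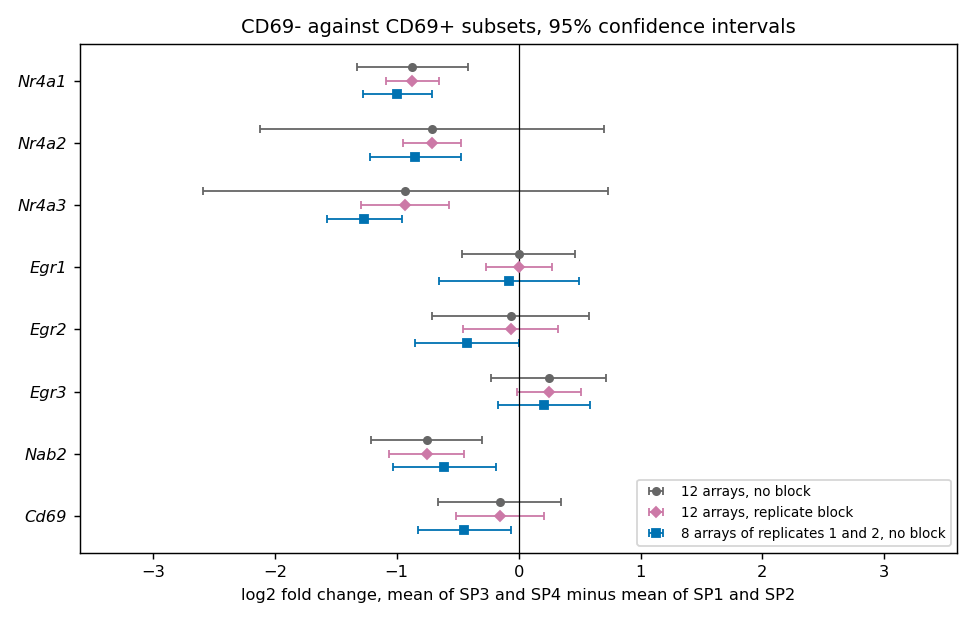
Log2 fold change of each gene in the CD69- against the CD69+ subsets (horizontal axis, with 95% confidence intervals of single probe sets, not adjusted for many tests) in 3 fits: 12 arrays without a block, 12 arrays with the replicate block, and the 8 arrays of replicates 1 and 2. The points of Nr4a1, Nr4a2, Nr4a3 and Nab2 lie between -0.61 and -1.26, and the intervals of Nr4a2 and Nr4a3 reach past 0 only on 12 arrays without the block.

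The arrays of replicate 3 stood apart, among the 8 genes above all in Nr4a2 and Nr4a3. Over all probe sets, a test of the 3 replicate numbers with the subset in the model, which was chosen after the data were seen, called 34% of probe sets. Of the 8 genes it called 6, with adjusted p-values of 1.96e-07 for Nr4a2, 1.25e-06 for Nr4a3, 0.0014 for Nr4a1, 0.00761 for Egr3, 0.0125 for Egr1 and 0.0163 for Egr2, against 0.0587 for Nab2 and 0.085 for Cd69. The difference of replicate 3 from the mean of replicates 1 and 2, averaged over subsets, was 2.66 on the log2 scale for Nr4a3 and 2.27 for Nr4a2. These ranked 4 and 12 from the top among the 18193 genes, whose median was 0.02. Nr4a3 was 3.90 to 10.8 times as bright in replicate 3, the higher ratios being those of the CD69- subsets. Nr4a1 (0.64) and Egr3 (0.53) were shifted the same way to a smaller extent. Egr2 (-0.67), Cd69 (-0.52) and Nab2 (-0.35) were lower in replicate 3, and Egr1 (0.10) was close to the rest.

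Of the spread over the 12 arrays, as a share of the sum of squares of log2 values, replicate number held 84.3% for Nr4a2 and 84.2% for Nr4a3, and subset held 14.2% and 12.1%. Nr4a1 and Nab2 were the reverse, with 68.6% and 58.7% held by subset. Egr3 had 48.4% with subset, Egr1 11%, Egr2 10.4% and Cd69 12.1%. Over all probe sets the median shares were 20.2% for subset and 38.2% for replicate number. With replicate 3 left out and no block, the CD69- vs CD69+ differences of Nr4a1 (-0.996, adjusted p = 0.00441), Nr4a2 (-0.85, 0.0496) and Nr4a3 (-1.26, 0.00207) passed on the remaining 8 arrays.

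**Figure D3:**
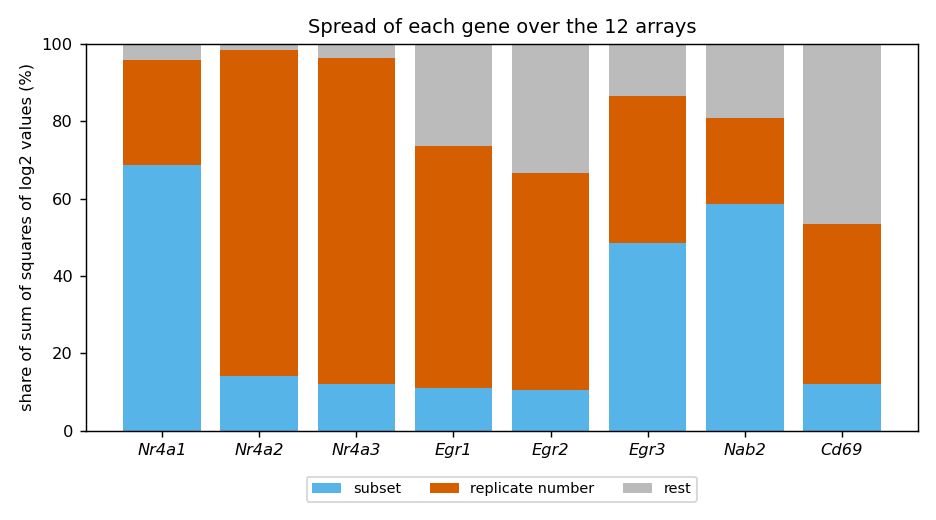
Share of the sum of squares of log2(intensity + 16) over the 12 arrays (vertical axis, percent) that went with subset, with replicate number and with neither, for the probe set of highest mean of each gene (horizontal axis). Replicate number holds over 80% for Nr4a2 and Nr4a3, and subset holds most for Nr4a1 and Nab2.

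Other genes moved with replicate 3 as well. Among 26 measured genes of a list of other TCR-induced genes, 12 differed between replicate numbers, as did 34% of all probe sets. The AP-1 subunit Fosl2 was higher by 3.49 on the log2 scale, the stress protein gene Gadd45b by 1.99, the transcription factor Irf4 by 1.50 and the costimulatory receptor Tnfrsf4 (OX40) by 1.34. Myc, by contrast, was lower by 1.48, Jun by 1.25 and the immediate early gene Ier2 by 1.21, while Fos (-0.17) and Junb (-0.01) were shifted little. TCR-induced genes were thus shifted in both directions on the same arrays. Of 24 measured kinases, calcium signal proteins and SRF or MEF2 factors, listed further on, 11 differed between replicate numbers. In replicate 3, 9 of the 24 were higher than both other arrays in every subset and 3 were lower. Among them Crem was higher by 2.29 on the log2 scale (adjusted p = 7.86e-08 by the test of replicate numbers). Of the markers of double positive thymocytes 9 of 9 measured differed between replicate numbers, with a median difference of replicate 3 of -1.31, led by Cd8a at -3.11. Their summed intensity was 1288 to 2533 on the replicate 3 arrays and 1289 to 13880 on the others. Of 4 B cell markers 3 differed (median -0.76). Of 8 heat shock and handling genes 4 differed, with a median of 0.36. The test covers any difference among the 3 numbers. The part of these in the shift of the NR4A genes was not tested.

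**Figure D4:**
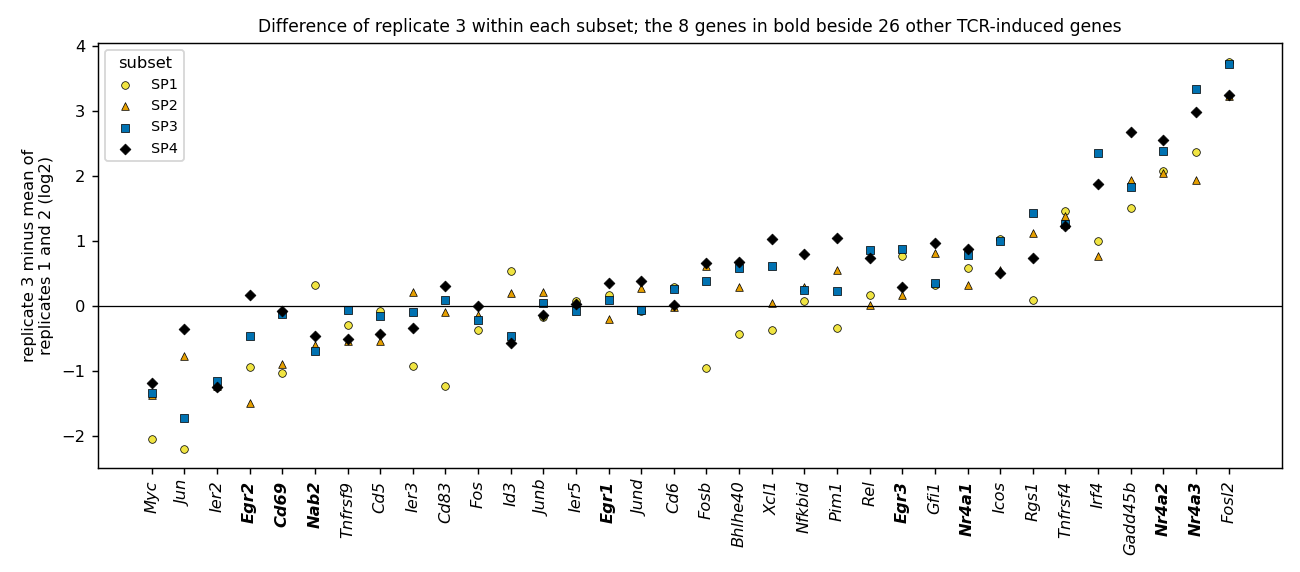
Log2 difference of replicate 3 from the mean of replicates 1 and 2 (vertical axis) within each of the 4 subsets (symbols), for the 8 genes (bold) and 26 other TCR-induced genes (horizontal axis, ordered by mean difference). Nr4a2 and Nr4a3 stand beside Fosl2 and Gadd45b at the top in all 4 subsets, and Egr2 and Cd69 lie towards the lower end with Myc, Jun and Ier2.

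The summed intensity of Cd3e, Cd3d, Cd4 and Zbtb7b was 6664 to 8945 on all arrays, but the first 3 are also expressed by double positive thymocytes and do not set CD4 single positive cells apart from them. The double positive markers summed to 7713, 7877 and 1344 in SP1, 2828, 1289 and 1288 in SP2, then 13880, 8018 and 2533 in SP3, and 3716, 3686 and 1359 in SP4. Levels as high as those of SP1 and SP3 in replicates 1 and 2 go against the label of CD8- cells. The sum was highest in SP3 in each replicate, and 0 of 9 were called in CD69- vs CD69+ or SP4 vs SP1 in either model (at an unadjusted p under 0.05, 0 without the block in either, and with it 7 in CD69- vs CD69+ and 2 in SP4 vs SP1). The median log2 fold change of the 9 was -1.59 in SP2 vs SP1, 2.28 in SP3 vs SP2, -1.45 in SP4 vs SP3 and 0.74 in CD69- vs CD69+. With the block 2 rose in SP3 vs SP2 and 1 fell in SP4 vs SP3. In replicate 3, where the sum stayed at 1288 to 2533, the SP4 vs SP1 differences of Nr4a1, Nr4a2 and Nr4a3 were -1.04, -0.72 and -0.33. Each was smaller there than in replicates 1 and 2. Nr4a2 and Nr4a3 were also at least 4.35 and 3.90 times as bright there as the mean of the other arrays of a subset. In replicates 1 and 2 the sum was highest in SP3, where Nr4a3 was lowest (183 and 222), while Nr4a1 was lowest in SP4 (1060 and 877). The part of double positive cells in the NR4A differences was not tested. The 5 measured NKT and innate-like T cell markers summed to 74.1 to 262 in SP1 and to 1041 to 1924 in SP4, and 3 of the 5 rose in SP4 vs SP1 without the block and 4 with it. In CD69- vs CD69+ 3 rose in both models. Their defining factor Zbtb16 (PLZF) was 12.9 to 36.9 in SP1 and 174 to 317 in SP4. Markers of activated or memory T cells summed to 435 to 722 in SP1 and 1214 to 1550 in SP4, with 2 of 5 called without the block and 4 with it. In CD69- vs CD69+ 1 rose without the block and 3 with it. Both lists were thus higher in SP4, where Egr3 was highest, although the sort had removed NK1.1+ and CD25+ cells, and their part in the rise of Egr3 was not tested. Of 6 regulatory T cell markers Foxp3 rose in SP4 vs SP1 without the block, and Foxp3 and Ctla4 with it. In CD69- vs CD69+ none was called without the block. With it 3 fell, Ikzf2 (log2 fold change -0.60, adjusted p = 0.00394), Tnfrsf18 (-0.58, 0.0299) and Tnfrsf4 (-0.68, 0.0357), and Foxp3 rose (0.86, 0.000413). The 3 that fell thus moved in the comparison in which the NR4A genes and Nab2 fell, and their part in that was not tested. Tnfrsf4 is also among the other TCR-induced genes. Of the markers of B cells (4 measured), myeloid and dendritic cells (6) and thymic epithelium and stroma (6), 1 was called in SP4 vs SP1 or CD69- vs CD69+, the myeloid integrin gene Itgam, which rose in SP4 vs SP1 with the block (0.27, 0.0147). The B cell markers summed to 3114, 3540 and 825.6 in SP1 and 1466, 667.9 and 769.5 in SP2. The myeloid markers summed to 1600, 1607 and 667.7 in SP1 and 817.2, 443 and 808.5 in SP2. In SP2 vs SP1 with the block 0 of either list were called. At an unadjusted p under 0.05 there were 4 of 4 B cell and 2 of 6 myeloid markers.

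Among genes of the same family and its cofactors, 6 besides the members were measured. Without the block none was called in SP4 vs SP1 or CD69- vs CD69+, at unadjusted p under 0.05 the RXR partner gene Rxra alone. Rxra, whose protein dimerizes with Nr4a1 and Nr4a2, was 42.7 to 59.4 in SP1 and 76.3 to 82.7 in SP4. Under the block Rxra rose in SP4 vs SP1 (log2 fold change 0.54, adjusted p = 0.00919, and 0.0744 without the block). Nab1, the other EGR corepressor, read 520 to 712 in SP1 and 682 to 933 in SP4 (log2 fold change 0.42, adjusted p = 0.71 without the block). Egr4 read 26.4 to 38.8 on all arrays.

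Upstream of these factors, 24 of 29 listed kinases, calcium signal proteins and SRF or MEF2 factors were measured. In SP4 vs SP1, 1 rose and 0 fell without the block, with a median log2 fold change of 0.04 against -0.01 over all genes. This was Ppp3cc, a catalytic subunit of calcineurin (log2 fold change 1.04 ± 0.17, SE, adjusted p = 0.0117), a call lost without SP1 replicate 1 (0.0644). With the block 4 rose, the other 3 being Nfatc2 (1.12), Nfatc1 (0.76) and Sos1 (0.56). For CD69- vs CD69+ 0 were called without the block, and Ppp3cc (0.50, adjusted p = 0.116) and Nfatc3 (0.51, 0.165) had the lowest p. With the block 2 rose and 1 fell, the latter being Crem (-0.45, adjusted p = 0.0209), which was also far higher in replicate 3, as given above.

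The other TCR-induced genes moved both ways, and no test compared them with the NR4A receptors. Of 26 measured, 0 were called in SP4 vs SP1 without the block (median log2 fold change 0.13), where Bhlhe40 (1.05, adjusted p = 0.087) and Icos (1.10, 0.363) had the lowest p. With the block 5 rose (Icos, Bhlhe40, Irf4, Rgs1 and Myc) and 1 fell. Their median log2 fold change was -0.23 in both SP3 vs SP2 and SP3 vs SP1, against 0.00 and 0.01 over all genes, and 0.34 in SP4 vs SP3. With the block 2 fell and 0 rose in SP3 vs SP2 (Tnfrsf9 and Cd5), 1 fell in SP3 vs SP1, and 4 rose in SP4 vs SP3. Across CD69- vs CD69+ (median 0.04) 1 fell without the block, and with it 2 rose (Myc and Pim1) and 4 fell (Tnfrsf9, Rel, Tnfrsf4 and Cd5). The gene that fell without the block was Tnfrsf9 (4-1BB), a costimulatory receptor induced by TCR signals, at 377 to 466 in SP1, 608 to 918 in SP2, but 188 to 206 in SP3 and 222 to 359 in SP4. It fell, with a log2 fold change of -1.25 ± 0.15 (SE, adjusted p = 0.00267 without the block), and it remained called when any single array was left out (up to 0.0136). Like Nr4a1, Nr4a3 and Nab2, Tnfrsf9 was thus lower in both CD69- subsets, and its CD69- and CD69+ arrays did not overlap.

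Feedback inhibitors of TCR and ERK signals moved both ways. Of 24 measured, 5 rose and 2 fell in SP4 vs SP1 without the block (median log2 fold change 0.03). The cytokine signal inhibitor Socs3 (1.397, adjusted p = 0.00251), the phosphatase genes Ubash3b (1.11, 0.0148) and Ptpn22 (1.08, 0.0342), the diacylglycerol kinase Dgka (1.07, 0.0272) and the inhibitory receptor Pdcd1 (1.18, 0.0458) rose. The ERK phosphatase Dusp5 (-1.13, 0.0422) and Socs1 (-0.96, 0.0382) fell. Leaving out single arrays kept only the call of Socs3 in every case, and removed that of Ubash3b in 3, Dgka in 6, Ptpn22 in 7, Pdcd1 and Socs1 in 10 and Dusp5 in 11 of 12. The call of Ubash3b was also lost with the mean of all its probe sets (0.112), and that of Dusp5 with quantile normalization (0.0575). With the block 8 rose and 3 fell. In CD69- vs CD69+ Socs3 rose by 0.93 (0.00511) and Dusp5 fell by 0.93 (0.0282, lost in 8 of 12 omissions); with the block 5 rose and 3 fell.

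Of 15 genes known to depend on EGR or NR4A factors in T cells, 3 rose and 0 fell in SP4 vs SP1 without the block (median log2 fold change 0.17). These were Nt5e (CD73, 2.18, adjusted p = 0.00159), Foxp3 (1.48, 0.0361) and Pdcd1, which is also in the former list. Foxp3, the factor of regulatory T cells, averaged 20.4 ± 6.51 in SP1 and 89.1 ± 40.4 in SP4 (SD, n = 3), and its call was lost in 7 of 12 single-array omissions. Nt5e was kept in all 12. With the block 6 rose and 1 fell, the latter being Tox (-0.97, 0.00171). In CD69- vs CD69+ 1 rose without the block, Nt5e by 1.12 (0.015, lost without SP2 replicate 1, SP2 replicate 2 or SP3 replicate 2), and with the block 3 rose and 1 fell. The innate-like and memory T cell markers given above were higher in SP4 too.

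The profiles most like each member were sought among 7175 genes with a mean intensity over 100, by Pearson's r over the 12 arrays after the mean of each replicate number was removed. The 12 points share 4 subsets and 3 replicate numbers, so the values are a description. Nr4a1 was followed most closely by Itm2a (r = 0.977), Trim13 (0.974) and Sox4 (0.968), the last a transcription factor of early thymocytes that read 3379, 3440, 2691 and 1742 on average in SP1 to SP4. Nr4a2 was followed by Trib1 (0.947), Cfl2 (0.930) and Dusp10 (0.928), and Nr4a3 by Tnfsf11 (RANKL, 0.940), Bcl2l11 (0.938) and Tgif2 (0.931). Bcl2l11 encodes Bim, a death effector in the deletion of thymocytes, and averaged 1990 and 1966 in SP1 and SP2 against 1126 and 1047 in SP3 and SP4. Before replicate means were removed, r with Nr4a3 was 0.942 for Bcl2l11, 0.965 for Tnfsf11 and 0.979 for Tgif2. For Nr4a2 the corresponding values were 0.984 for Dusp10, 0.504 for Trib1 and -0.436 for Cfl2. For Nr4a1 they were 0.688 for Itm2a, 0.908 for Trim13 and 0.957 for Sox4. Nab2 was followed by Slc35a1 (0.988), Zfp330 (0.973) and Prmt2 (0.966), and Egr3 by Sh2d3c (0.976), Filip1l (0.969) and Cd53 (0.963). Before the removal r was, in the same order, 0.874, 0.796 and 0.938 for Nab2 and 0.665, 0.977 and 0.443 for Egr3. The closest profiles were looser for Egr1 (Ubn2 0.858, Ankrd23 0.830, Casd1 0.817), Egr2 (Gypc 0.816, Slc5a3 0.792, Pxk 0.781) and Cd69 (Golph3 0.882, Ifrd1 0.874, Nkrf 0.871). Their r before the removal was 0.321, 0.38 and 0.354 for Egr1 and -0.167, -0.255 and 0.375 for Egr2. For Cd69 it was 0.514, -0.115 and -0.202.

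Between members, with replicate means removed, r was 0.771 for Nr4a1 with Nr4a2, 0.768 for Nr4a1 with Nr4a3, 0.727 for Nr4a2 with Nr4a3 and 0.759 for Nr4a1 with Nab2. Egr1 correlated with Egr2 at 0.678 and with Egr3 at 0.525, but with Nr4a1 at -0.01 and Nr4a2 at -0.22. Egr3 ran against Nr4a1 (-0.561). Cd69 was nearest to Egr2 (0.647) and Nr4a3 (0.603), and its r with Nr4a1 was 0.262. Before replicate means were removed, r of Cd69 was 0.708 with Egr2, but -0.405 with Nr4a3 and -0.162 with Nr4a1. For Egr3 with Nr4a1 it was then -0.0992, and for Nr4a1 with Nab2 0.395. The 3 NR4A pairs stayed at 0.736, 0.738 and 0.945, in the order given.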

How the data were processed

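The 12 Affymetrix Mouse Genome 430 2.0 arrays, 3 for each of SP1 to SP4, were analysed from the deposited table of linear intensity values. Background correction and between-array normalization were the authors', by RMA according to the study's methods and by MAS5 according to the submitters' notes, with versions not given in the sources used here. The number of arrays limits the precision. An offset of 16 was added before log2, and limma 3.58.1 in R 4.3.3 (eBayes with a mean-variance trend) was fitted to all 12 arrays with 1 mean per subset and 8 residual degrees of freedom. Each gene was read by its probe set of highest mean. The study describes independent preparations of the 4 subsets from pooled thymi, which the labels number as biological replicates.

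Deviations of same-numbered arrays from their subset means correlated between 0.279 and 0.883, over the limit set for pairing, so a model with the replicate number as a block (6 residual degrees of freedom) is given beside the main one. Arrays of replicates 1 and 2 also correlated with each other, between 0.178 and 0.729, so the check sets replicate 3 apart more than it separates 1 from 2. Correlations of replicate 3 with the others (-0.812 to -0.388) are pushed below 0 by centring on the mean of 3 arrays. The study presents its arrays as 3 repeats, each holding all 4 subsets, and the labels do not state that the replicate numbers are these repeats.

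Members and lists were chosen with earlier results of these data known. Named were all members, called genes of each list in SP4 vs SP1 and CD69- vs CD69+ (or the 2 of lowest p), and the 3 most similar profiles per member; genes named for the blocked model or for replicate 3 were chosen after their values were seen. Of the probe sets, 932 name several genes and 9160 none here, and were not used as genes. Alternatives were offsets of 1 and 64, quantile normalization, a mean intensity over 50, the mean of a gene's probe sets, and omission of arrays. The fit without the block was tested, for SP4 vs SP1, on simulated data that held no replicate effect. The blocked model was not tested in this way.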

Additional observations from a re-analysis of the deposited data

How the results depend on the processing

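Without the replicate block, an offset of 1 or 64, quantile normalization, a mean intensity over 50 and the mean of all probe sets left the number of member genes called at 0 in all 7 comparisons. Adding the replicate block moved it to 1 in SP3 vs SP1, 2 in SP4 vs SP2, 3 in SP4 vs SP1 and 4 in CD69- vs CD69+, and left it at 0 in the other 3. A block of replicate 3 against the rest gave 1, 1, 3 and 4 in these, and 0 in the other 3.

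Over all fits that left out 1 array or all 4 arrays of a replicate number, without and with the block, it ranged from 0 to 4 in CD69- vs CD69+, 0 to 3 in SP3 vs SP1, 0 to 1 in SP3 vs SP2, 0 to 5 in SP4 vs SP1, 0 to 2 in SP4 vs SP2 and 0 to 1 in SP4 vs SP3. Without the block, 1 array changed the number: without SP4 replicate 3, Nr4a1 was called in SP4 vs SP1 (log2 fold change -1.53, adjusted p = 0.0331) and in CD69- vs CD69+ (-1.02, 0.0418).

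The direction turned only where differences were small or subsets were reduced. The log2 fold change ranged over these fits from -0.45 to 0.17 for Cd69, -0.15 to 0.16 for Egr1 and -0.42 to 0.14 for Egr2 in CD69- vs CD69+, and from -0.36 to 0.40 for Cd69, -0.12 to 0.50 for Egr2 and -1.74 to 0.048 for Nr4a3 (the latter without SP1 replicate 3) in SP4 vs SP1. With an offset of 1, Egr1 in CD69- vs CD69+ was -0.000104. Egr2 and Egr3 were the dimmest members, and whether their signal limited the calls was not tested. Omitting whole replicate numbers, omitting arrays with the block, and the block of replicate 3 were chosen after seeing the data. The pairing check gave a lowest correlation of 0.247 over probe sets with a mean intensity over 100. The cause of these dependences was not tested.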
